A study of Mus musculus with 354 samples.

Results

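The SIBLING genes (small integrin-binding ligand, N-linked glycoproteins) encode 5 secreted, acidic phosphoproteins of mineralized tissue, and they lie next to each other on mouse chromosome 5. Their names are *Spp1* (osteopontin), *Dmp1* (dentin matrix protein), *Ibsp* (bone sialoprotein), *Mepe* (matrix extracellular phosphoglycoprotein) and *Dspp* (dentin sialophosphoprotein). The 5 members were taken by name from the 55367 genes counted in single cells of both genotypes, and each had at least 1 count. The family was selected on the contrast of CA-ERBB2 cells with Control cells in these same libraries, so its levels, detection and co-occurrence by genotype are given as a description without a test.

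Supporting cells (SCs), the glial-like cells around the sensory hair cells, were purified from the cochlea of mouse pups at P3 by their GFP. Both genotypes carried *Fgfr3-iCre* and the floxed *ROSA* allele for rtTA with GFP, and CA-ERBB2 pups also carried a *TetON* transgene for a constitutively active ERBB2. Controls were littermates without that transgene. Tamoxifen at 75 mg/kg was injected at P0 and P1 and doxycycline at 100 mg/kg at P2, and the protocol names no exception for Control pups. Cochleae of several pups were pooled for a sort, the *Fgfr3* promoter is not restricted to 1 type of SC, and induction lasted about a day. Each genotype comprised 59 cells on each of 3 plates, and the plate was taken as the replicate.

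The counts summed per plate lay between 108357282 and 188636940, and the median number of genes detected per cell lay between 1742 and 10198, with the highest medians on plate 1 of both genotypes. Of all cells, 2 CA-ERBB2 and 33 Control cells had fewer than 100000 counts. Wells A12 to D12 of every plate stood apart, with plate medians between 13146 and 17397 genes against 1216 to 10095 in the other wells. Some results are therefore also given without these 12 wells of each genotype. The median cell had between 1 and 5 of 12 SC markers at 10 CPM or more by plate, where CPM is the count scaled to a total of 1000000 in the cell. *Erbb2* was measured at 46.1 to 120 CPM on the CA-ERBB2 plates and at 3.24 to 19.8 CPM on the Control plates, which do not overlap, after scaling the plates by TMM (trimmed mean of M values).

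As background, SIBLING proteins bind integrins through an RGD sequence, and several also bind CD44, calcium and hydroxyapatite. Osteopontin is made by bone cells, macrophages and many epithelia and is also a cytokine. The dentin matrix protein is a product of osteocytes and odontoblasts, bone sialoprotein of osteoblasts, MEPE of osteocytes, and dentin sialophosphoprotein mostly of odontoblasts. The neonatal cochlear duct lies inside a capsule that becomes bone.

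In GRCm38 the cluster spanned chr5:104170712-104441050, or 270339 bases, in the order *Dspp*, *Dmp1*, *Ibsp*, *Mepe* and *Spp1*, all on the plus strand. The gaps between them were 22.5, 85.1, 13.9 and 96.5 kb. RefSeq starts were found for 4 of the 5 members. The 180 bases before the start of each are shown so that the pair found together most often, *Spp1* and *Dmp1*, can be read beside the less frequent *Ibsp* and *Mepe*. Capitals mark 4 short motifs, which were picked after these sequences had been looked at. They are AACCACA, the RUNX recognition sequence, AGGAAGT, an ETS-type sequence, ATTGG, the inverted CCAAT box, and TTTAAA, an AT-rich sequence. The windows lie on the plus strand of GRCm38.p6 at chr5:104434931-104435110 (*Spp1*), chr5:104202437-104202616 (*Dmp1*), chr5:104299107-104299286 (*Ibsp*) and chr5:104325149-104325328 (*Mepe*).
Spp1: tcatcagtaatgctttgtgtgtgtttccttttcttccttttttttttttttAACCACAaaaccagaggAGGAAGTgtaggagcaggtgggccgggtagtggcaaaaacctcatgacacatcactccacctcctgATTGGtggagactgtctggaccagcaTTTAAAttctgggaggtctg
Dmp1: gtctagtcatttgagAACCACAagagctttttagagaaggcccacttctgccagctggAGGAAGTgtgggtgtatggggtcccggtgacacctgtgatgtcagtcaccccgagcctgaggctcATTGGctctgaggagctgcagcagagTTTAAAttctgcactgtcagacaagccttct
Ibsp: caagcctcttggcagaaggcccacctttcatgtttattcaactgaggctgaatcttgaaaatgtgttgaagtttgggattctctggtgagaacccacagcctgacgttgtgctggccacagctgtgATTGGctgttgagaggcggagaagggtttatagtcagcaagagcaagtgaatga
Mepe: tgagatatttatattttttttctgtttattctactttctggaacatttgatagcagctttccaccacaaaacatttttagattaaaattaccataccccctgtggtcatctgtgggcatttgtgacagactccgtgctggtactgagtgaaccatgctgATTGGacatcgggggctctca

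Both *Spp1* and *Dmp1* held all 4 motifs, on the plus strand and in the same order. In *Spp1* they began 129, 112, 46 and 20 bases before the start, and in *Dmp1* 165, 122, 57 and 31 bases before it. *Ibsp* and *Mepe* held only ATTGG among the 4, at 54 and 21 bases. Over the 250 bases before 32851 RefSeq starts, read on both strands, AACCACA was found in 4.4% of the windows, AGGAAGT in 7.69%, ATTGG in 33.8% and TTTAAA in 12.1%. All 4 were found in 3 windows, those of *Spp1* and *Dmp1* included. The motifs were picked on these sequences, so their presence in both was given beforehand and this count is a description. *Spp1* and *Dmp1* have 2 RefSeq records each, and whether the third window is another start of either was not read. No motif overlapped another in the sequences shown. TGAGTCA, the AP-1 sequence, and CACGTG, an E-box, were searched in the same way and were in none of these 4 windows, while 4.46% and 6.02% of all windows held them. A match describes these letters and is not evidence that a factor binds there.

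*Spp1* had by far the highest level of the family in both genotypes. On the CA-ERBB2 plates 1, 2 and 3 it was measured at 7137, 116700 and 136700 TMM-scaled CPM, and on the Control plates at 142.7, 465.5 and 1116. The lowest CA-ERBB2 plate was above the highest Control plate, and plate 1 was far below the other two CA-ERBB2 plates. The edgeR log2 fold change was 7.24 with an SE of 1.34 (n = 3 plates per genotype). In a sum over cells, more cells with a transcript and more transcript per cell cannot be told apart, so the cells were described singly.

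*Spp1* was detected with at least 1 count in 79.1% of CA-ERBB2 cells (140 cells, with an exact 95% binomial interval from 72.4 to 84.8) and in 35.03% of Control cells (62 cells, 28.0 to 42.5). The reads carry no molecular identifiers, so intervals and limits cover counting error only. A level of 100 CPM or more was found in 10, 31 and 31 cells of the CA-ERBB2 plates and in 14, 10 and 9 cells of the Control plates. The plates of the genotypes therefore overlapped in this share, since CA-ERBB2 plate 1 had as many such cells as Control plate 2. The mean share over plates was 40.7% ± 20.6 (SD, n = 3) in CA-ERBB2 and 18.6% ± 4.48 in Control.

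The genotypes were set apart by how high single cells reached. In CA-ERBB2, 32 cells exceeded 100000 CPM and the highest stood at 419500, so that the gene took a large share of some cells' counts. In Control, 0 cells exceeded 100000 CPM, where a true share as high as 1.69% could have gone unseen (3 cells), and the highest cell stood at 27420 CPM. That cell, on plate 3, held 55.8% of all Control *Spp1* counts. On CA-ERBB2 plate 1 a single cell held 56.5% of the *Spp1* counts of the plate, against 12.3% and 12.5% for the top cells of plates 2 and 3. At the low end, 11, 17 and 21 cells of the CA-ERBB2 plates had *Spp1* above 0 but under 10 CPM, against 3, 6 and 3 of the Control plates, and plates with very high cells had more of these. Detection with 1 count was for that reason not used to describe co-occurrence with *Spp1*.

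**Figure D1:**
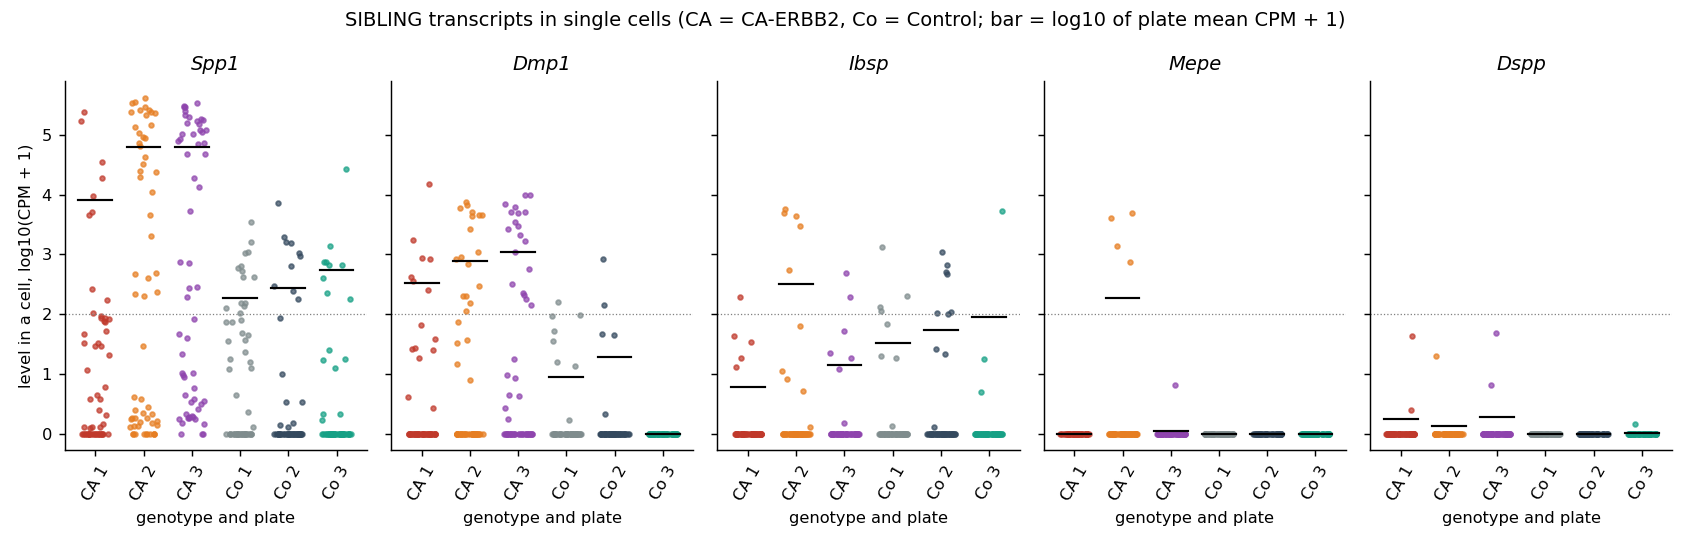
Level of each SIBLING transcript in each cell, as log10(CPM + 1), by genotype and plate (CA = CA-ERBB2, Co = Control), with a bar at the log10 of the plate's mean CPM + 1 and a dotted line at 100 CPM. *Spp1* exceeded 100000 CPM in 32 CA-ERBB2 cells and 0 Control cells, *Dmp1* was highest on the CA-ERBB2 plates, *Ibsp* overlapped between genotypes, and *Mepe* stood above the line in 4 cells of 1 plate.

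*Dmp1* was the second member with plates that did not overlap. It was measured at 314, 1386 and 2471 TMM-scaled CPM on the CA-ERBB2 plates and at 7.02, 21.5 and 0 on the Control plates. The log2 fold change was 7.19 with an SE of 1.91, but the Control level rests on 4228 counts, of which 1 cell held 46.5%. *Dmp1* was detected in 15, 22 and 26 of 59 cells on the CA-ERBB2 plates and in 8, 5 and 0 cells on the Control plates. At 100 CPM or more it was found in 43 CA-ERBB2 cells (24.3% ± 10.9, SD over plates) and in 3 Control cells (1.69% ± 1.69). Its highest levels in a cell were 15000 CPM in CA-ERBB2 and 832 CPM in Control. Detection of *Dmp1* at under 10 CPM was uncommon, with 9 CA-ERBB2 and 2 Control cells.

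*Ibsp* did not follow the same pattern. It was measured at 4.48, 633 and 39.7 TMM-scaled CPM on the CA-ERBB2 plates and at 32.1, 83.2 and 199 on the Control plates, and the ranges overlapped. The log2 fold change was 1.11 with an SE of 1.29, its sign rested on plate 2, and without that plate it was -2.23. It was also negative in limma fits to the log2 level of each plate, at -0.66 for the summed counts and at -0.85 with every cell weighted equally, whereas the plate means of the cells' CPM were 5.04, 317 and 13.2 in CA-ERBB2 and 31.9, 52.6 and 89.3 in Control. *Ibsp* was detected in 22 CA-ERBB2 and 21 Control cells, and it reached 100 CPM in 8 and 11 cells, respectively. Of the 11 Control cells, 1 reached this level with 3 counts, and 1 cell of plate 3 held 57.6% of all Control *Ibsp* counts. Without wells A12 to D12, 6 CA-ERBB2 and 8 Control cells remained.

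*Mepe* and *Dspp* were rare. *Mepe* had 39817 counts in CA-ERBB2 and 0 in Control, but 4 cells of plate 2 gave all but 20 of these counts. Set against a limit of 3 counts over the Control cells, the ratio relative to the total counts was 11970. That limit covers the counting of reads only. The ratio is no lower bound between genotypes, since an unseen Control cell with *Mepe* could hold many counts. *Mepe* was detected in 0, 4 and 1 cells of the CA-ERBB2 plates, and in 0 Control cells, with the same limit of 1.69%. With its counts almost all on 1 plate, *Mepe* did not pass the expression filter (filterByExpr), and 4 of the 5 members were in the fit across genes. *Dspp* had 385 counts in CA-ERBB2 and 1 in Control, a ratio of 347 relative to the total counts with a Poisson interval from 62.0 to 13760. The interval covers the counting of reads and not which cells were sampled. These counts came from 5 CA-ERBB2 cells, with 2, 1 and 2 cells on the plates, and the highest level in a cell was 47.0 CPM. The share of cells with *Dspp* was 2.82% in CA-ERBB2 and 0.565% in Control, and 3 of the 5 CA-ERBB2 cells were in wells A12 to D12.

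Levels of different genes were compared only per kb of exon. On the CA-ERBB2 plates *Spp1* was measured at 5730, 55210 and 56930 CPM per kb, *Dmp1* at 150, 391 and 614, and *Ibsp* at 2.87, 239 and 13.2. *Mepe* followed with 0, 169 and 0.0905, and *Dspp* with 0.134, 0.105 and 0.357. *Spp1* was above *Dmp1*, and *Dmp1* above *Ibsp*, on each of the 3 plates, whereas *Mepe* and *Dspp* changed places between plates. On the Control plates *Ibsp* stood above *Dmp1*, with *Spp1* at 113, 310 and 661 CPM per kb, *Ibsp* at 20.2, 44.2 and 93.8, and *Dmp1* at 3.30, 8.54 and 0.

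To find whether the transcripts were present in the same cells, cells were classed by the members at 100 CPM or more. *Spp1* and *Dmp1* were found together in 39 CA-ERBB2 cells, with 3, 17 and 19 on the plates, and in 0 Control cells. Without wells A12 to D12 the pair was found in 31 of 165 CA-ERBB2 cells, so the gene-rich wells held part of the 39. Of these 39 cells, 31 had this pair alone, 4 had *Ibsp* as well, and 4 had *Ibsp* and *Mepe*. A further 33 CA-ERBB2 cells had *Spp1* without *Dmp1*, and 4 cells, all on plate 1, had *Dmp1* without *Spp1*. In Control, 29 cells had *Spp1* alone, 7 had *Ibsp* alone, 3 had *Dmp1* alone and 4 had *Spp1* with *Ibsp*. More than a single member was thus present in 39 CA-ERBB2 and 4 Control cells.

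**Figure D2:**
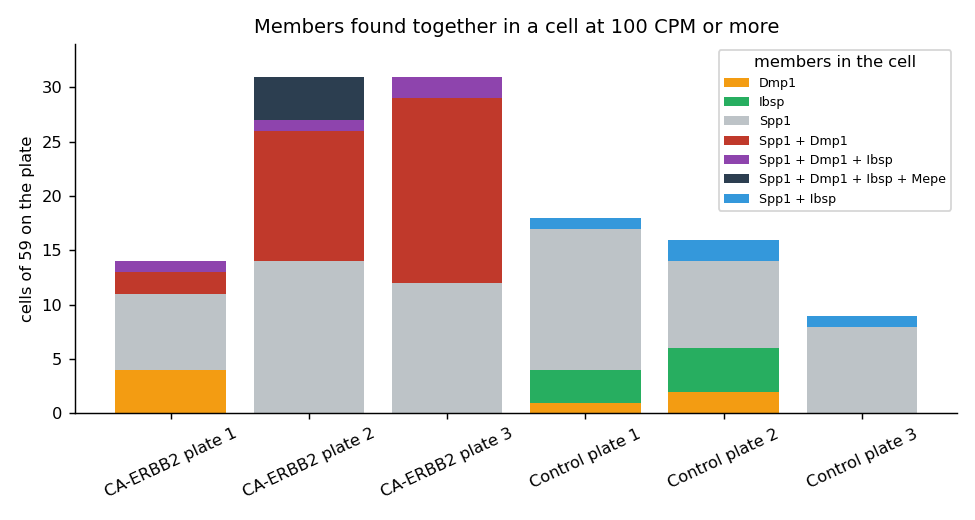
Number of cells out of 59 on each plate in which the members named in the legend were found together at 100 CPM or more (cells with none are not drawn). *Spp1* with *Dmp1* appears in 3, 17 and 19 cells of the CA-ERBB2 plates and in no Control cell, whereas *Ibsp* without *Dmp1* appears on Control plates.

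Among the CA-ERBB2 cells in which *Dmp1* was detected, *Spp1* reached 100 CPM in 81.0% (51 of 63, interval 69.1 to 89.7), against 18.4% (11.8 to 26.8) of the cells without *Dmp1*. These intervals cover counting error over pooled cells and not the spread between plates. The share among cells with *Dmp1* was 33.3% on plate 1, 100% on plate 2 and 92.3% on plate 3, each outside its interval. In Control, 6 of the 13 cells with *Dmp1* had *Spp1* at that level (46.2%, 19.2 to 74.9). The presence of *Dmp1* went with the height of *Spp1*. In CA-ERBB2 cells with *Spp1* between 100 and 1000 CPM, 0 of 14 had *Dmp1* at 100 CPM, and between 1000 and 10000 CPM 0 of 6 had it. Between 10000 and 100000 CPM 11 of 20 cells had it, and above 100000 CPM 28 of 32.

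Within the 39 cells with both transcripts, *Spp1* ranged from 11000 to 419500 CPM with a median of 168300, and *Dmp1* from 111 to 15000 CPM with a median of 2152. Per kb of exon *Spp1* was higher than *Dmp1* in every one of them, by 19.8- to 3487-fold with a median of 122-fold. Spearman's rho between the levels in these 39 cells was 0.38, where the cells share 3 plates and both levels are shares of the same total. In these cells a median of 3404 genes was detected, against 2295 in the 33 cells with *Spp1* alone.

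**Figure D3:**
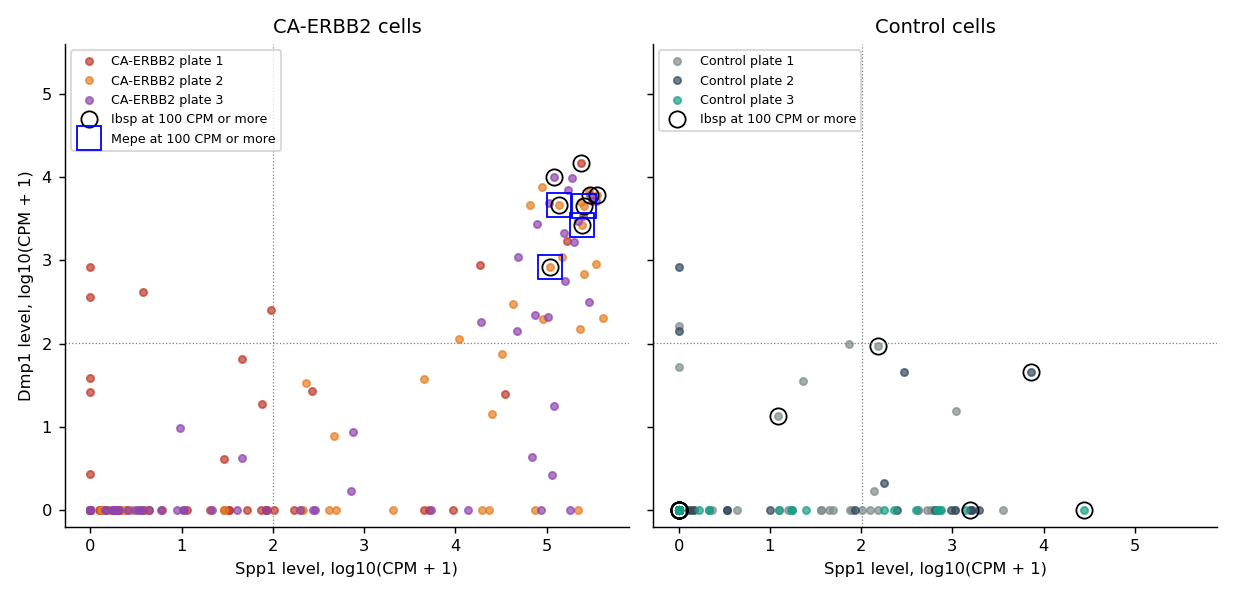
*Spp1* against *Dmp1* in each cell, both as log10(CPM + 1), for CA-ERBB2 (left) and Control (right), colored by plate, with dotted lines at 100 CPM. All 8 CA-ERBB2 cells with *Ibsp* at 100 CPM or more (circles) and the 4 with *Mepe* (squares) lie at the upper right, and the Control cells with *Ibsp* lie outside that quadrant.

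The partners of *Ibsp* were read in each genotype. All 8 CA-ERBB2 cells with *Ibsp* at 100 CPM or more also had *Spp1* and *Dmp1* at that level. Of the 11 Control cells with *Ibsp*, 0 had *Dmp1* and 4 had *Spp1* at that level. The cells with *Mepe* carried the largest part of the family. In wells B1, C5, D12 and E5 of CA-ERBB2 plate 2, *Mepe* was measured at 4862, 1386, 4050 and 732 CPM, *Ibsp* at 3038, 4334, 5666 and 5007, *Spp1* at 242100, 258900, 136000 and 109500, and *Dmp1* at 2657, 4480, 4651 and 825. These 4 cells thus had 4 members each, and D12 is one of the gene-rich wells. The fifth cell with *Mepe*, in the gene-rich well D12 of plate 3, had *Mepe* and *Dspp* at 5.49 CPM each and was the only cell of either genotype in which all 5 members were detected. All 5 CA-ERBB2 cells with *Dspp* had *Dmp1*.

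Marker lists of other cell types were read in the same cells, and the summed list of bone-forming cell genes moved with the members. Its 12 genes had a median summed level of 7430 CPM (1720 to 16340) in the 4 cells with *Mepe*, 2435 (0 to 7424) in the other 35 cells with *Spp1* and *Dmp1*, and 431 (0 to 29760) in the other 138 CA-ERBB2 cells. In Control the median was 4101 CPM in the 11 cells with *Ibsp* and 167 in the other cells. The 6 mesenchyme genes moved with *Ibsp* there as well, with medians of 3151 (0 to 17860) and 1341 (0 to 40970) CPM, and *Pou3f4* was at 10 CPM or more in 72.7% against 27.1% of the cells and *Dcn* in 72.7% against 45.2%. Other lists differed in these 11 Control cells too. The macrophage list had medians of 68.3 against 0.5891 CPM and the SC list of 224.5 against 499.9. *Ptprc* was at 10 CPM or more in 27.3% against 2.41%, and the hair cell gene *Pvalb* in 27.3% against 11.45%. Without the gene-rich wells A12 to D12, 8 of the 11 cells remained, and Control cells with few counts were not left out. In CA-ERBB2 the mesenchyme list had medians of 547 (52.8 to 2665), 1272 (0 to 6395) and 1640 (0 to 31610) CPM in the 4, 35 and 138 cells. *Sp7*, the osteoblast transcription factor, *Col1a1*, *Col1a2*, *Phex* and *Ifitm5* were at 10 CPM or more in 4 of 4 cells with *Mepe*, while *Alpl*, *Postn*, *Omd* and *Sost* were in 0 of 4. Among the other 35 cells, *Col1a1* was at that level in 77.1% and *Sp7* in 42.9%, against 23.2% and 9.42% of the 138 cells. These groups differ by plate, with the 4 cells all on plate 2 and 3 of the 39 cells on plate 1. The median cell had 6, 2 and 1 mesenchyme markers at 10 CPM or more on CA-ERBB2 plates 1, 2 and 3. The lists were not compared within plates. The part of bone-forming and mesenchymal cells in these results was not tested.

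The macrophage and osteoclast list had a median summed level of 303 CPM (0 to 969) in the 4 cells, 196 (0 to 9578) in the 35 and 6.59 (0 to 13640) in the 138. In the 35 cells *Ctsk* was at 10 CPM or more in 51.4%, *Cd68* and *Csf1r* in 20% each, *Ptprc* in 2.86%, *C1qa* in 5.71% and *Acp5* in 0. Without *Ctsk* the median of the list in these 35 cells was 0, with a highest cell at 9532 CPM. The SC and cochlear epithelium list had medians of 773 (205 to 3819), 179 (0 to 3509) and 601 (0 to 47940) CPM in the same order. On CA-ERBB2 plates 1, 2 and 3 the median cell had 5, 2 and 1 of these markers at 10 CPM or more. The groups of cells differ by plate, so these medians also reflect the plates. *Fgfr3* was at 10 CPM or more in 1 of the 4 cells, in 25.7% of the 35 and in 31.9% of the 138, and *Sox2* in 1 of 4, in 20% and in 23.2%. *Epcam* was at that level in 4 of 4, in 31.4% and in 34.8%, and *S100a1* in 4 of 4, in 40% and in 52.2%. The hair cell list had a median of 0 in each, with the highest cells at 2390, 28.4 and 6384 CPM.

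Well D12 stood apart among the 4 wells with *Mepe*. It had 12 of 12 SC markers, 5 of 6 hair cell markers, 11 of 12 macrophage markers, 8 of 12 bone markers and 6 of 6 mesenchyme markers at 10 CPM or more. Wells B1, C5 and E5 had 2, 3 and 2 SC markers, 0 hair cell markers, 1, 0 and 1 macrophage markers, and 5, 7 and 7 bone markers at that level. *Mepe* with *Ibsp*, *Spp1* and *Dmp1* was thus found in 3 cells when D12 was left out. The cells had passed gates for single cells, and no doublet caller was run. *Erbb2* was detected in 24 of the 39 cells (61.5%) and in 58 of the other 138 CA-ERBB2 cells (42.0%).

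The genes whose levels across cells were most like those of *Spp1* and *Dmp1* were named by Spearman's rho within each CA-ERBB2 plate, averaged over 3 plates of 59 cells, among 6980 genes. For *Spp1* these were *Timp1* (0.64), an inhibitor of metalloproteinases, *Dmp1* itself (0.62), *Lgals1* (0.60), *Mmp9* (0.57) and *Anxa1* (0.51). For *Dmp1* these were *Spp1* (0.62), *Timp1* (0.61), *Col6a1* (0.58), *Snx7* (0.58) and *Cdkn1a* (0.56). The likeness of *Spp1* to *Dmp1* was 0.27 on plate 1, 0.79 on plate 2 and 0.81 on plate 3. All levels in a cell share its depth and its number of genes, so these values are a description.

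The neighbouring genes were tested to learn whether the locus rose as a whole. Of 49 annotated genes within 1 Mb of the cluster, 39 had counts and 22 could be tested with edgeR across 21416 genes. A gene was called when its adjusted p (Benjamini-Hochberg) lay under 0.05 and its log2 fold change exceeded 1 in size. By this rule 0 of 22 neighbours were called, where 0.00467% of all genes tested were (1 gene, *Serpinb2*, named after its values were seen). At an unadjusted p under 0.05, 1 of 22 neighbours was higher in CA-ERBB2, where 2.77% of all genes were, and 0 were lower, where 2.39% were. The median log2 fold change of the neighbours was -0.45, beside -0.02 over all genes tested. Of the 22, 7 had a positive value.

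The neighbour that was higher was Gm42793, a transcript of unclear status at chr5:104435121-104436372 that lies inside the first part of *Spp1* on the same strand. It was measured at 5.42, 4.19 and 63.3 TMM-scaled CPM on the CA-ERBB2 plates and at 0.29, 0.71 and 0 on the Control plates (log2 fold change 6.19, SE 1.86, edgeR unadjusted p = 0.00728, adjusted p = 0.886). It overlaps *Spp1* on the same strand, so it is no separate evidence of a neighbour. Across all genes, 4.2% had every CA-ERBB2 plate above every Control plate, and 4.88% had every one below. Among the neighbours the first held for Gm42793 alone and the second for none.

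The nearest protein-coding genes on either side did not pass the test, and their plates overlapped between genotypes. *Sparcl1*, a relative of SPARC, lies 57.0 kb before the cluster and was measured at 1305, 332 and 722 TMM-scaled CPM on the CA-ERBB2 plates and at 1847, 885 and 758 on the Control plates (log2 fold change -0.56, SE 0.61, edgeR adjusted p = 0.947). *Pkd2*, which encodes polycystin 2, lies 18.4 kb after *Spp1* and was measured at 73.5, 31.6 and 28.7 against 99.1, 63.0 and 49.5 CPM (log2 fold change -0.66, SE 0.59, edgeR adjusted p = 0.936). The SE of each gene was far smaller than the log2 fold changes of *Spp1* and *Dmp1*. *Nudt9*, a mitochondrial ADP-ribose hydrolase and the other of the 3 neighbours with the highest level, had a log2 fold change of 0.11 (SE 0.72, edgeR adjusted p = 0.991).

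**Figure D4:**
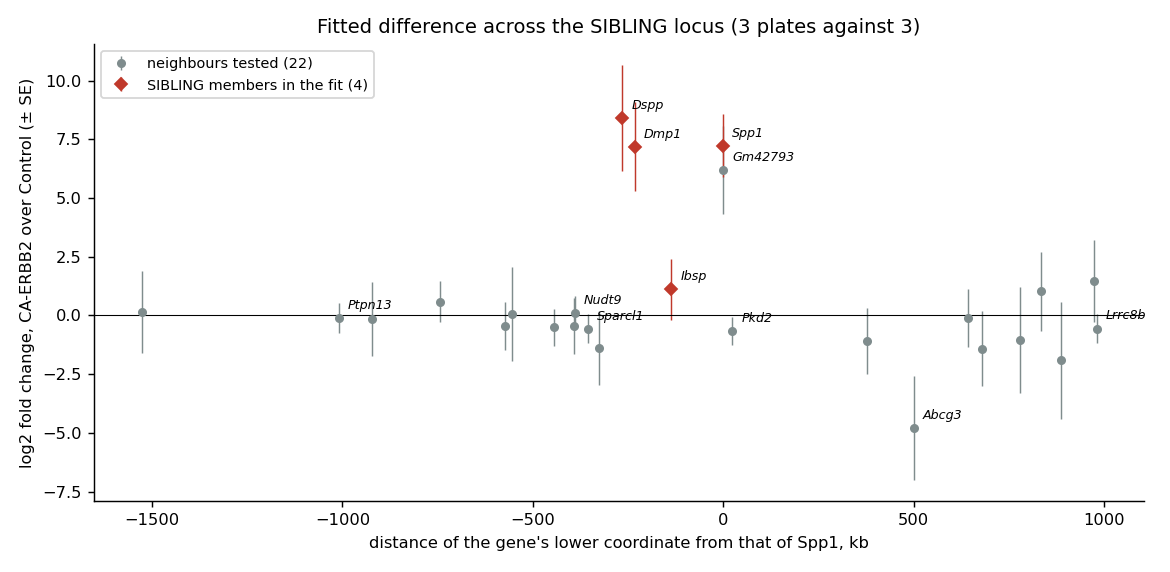
Fitted log2 fold change of CA-ERBB2 over Control, with its SE, for 22 neighbours tested (grey) and the 4 members in the fit (red), against the distance in kb from the lower coordinate of *Spp1*. *Dmp1* and *Spp1* lie at 7.19 and 7.24, and *Ibsp* between them at 1.11, with a sign that changed between fits. *Dspp* lies at 8.41 but rests on 385 counts against 1. The flanking *Sparcl1* and *Pkd2* lie at -0.56 and -0.66.

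The neighbours were also read in single cells, without a test. In the 39 CA-ERBB2 cells with *Spp1* and *Dmp1*, *Sparcl1* was at 10 CPM or more in 30.8%, against 52.2% of the other 138 cells. On plates 2 and 3 alone the shares were 27.8% and 31.7%. *Pkd2* was at that level in 33.3% of the 39 cells and in 44.2% of the others, and on plates 2 and 3 in 27.8% and 14.6%. *Nudt9* was at that level in 38.5% and 40.6%, and on plates 2 and 3 in 33.3% and 10.98%. The direction thus depended on the plates included for *Pkd2* and *Nudt9*, and the cells of plate 1, with more genes detected per cell, made up few of the 39. Gene-rich wells were also among the 39, of which 31 remained without wells A12 to D12. The shares of the neighbours were not read without these wells, so the higher shares on plates 2 and 3 do not show neighbours rising with the pair.

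The partners of the family were read from 4 lists, taken from the same edgeR fit. Of 10 receptor genes, all were tested, 0 were called by the adjusted p, and 0 passed an unadjusted p under 0.05 in either direction, with a median log2 fold change of -0.12. The RGD-binding *Itgb1* had plates at 436, 292 and 280 TMM-scaled CPM in CA-ERBB2 and 352, 419 and 348 in Control (log2 fold change -0.15, SE 0.45, edgeR adjusted p = 0.983). *Itgav*, its partner for osteopontin, had a log2 fold change of 0.48 (SE 0.54, edgeR adjusted p = 0.952).

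Of 14 enzymes that cleave or modify the proteins, 11 were tested, 0 were called by the adjusted p, and 4 were higher and 0 lower at an unadjusted p under 0.05, where 2.77% and 2.39% of all genes were, with a median log2 fold change of 0.31. *Mmp9*, a gelatinase that cleaves osteopontin, was measured at 404, 4081 and 5831 TMM-scaled CPM on the CA-ERBB2 plates and at 21.5, 124 and 127 on the Control plates (log2 fold change 5.24, SE 1.07, edgeR unadjusted p = 0.000545, adjusted p = 0.653). *Mmp9* is a gene the study picked on these samples, and the whole list was chosen with earlier results of these data known. Neither *Mmp9* nor the count of 4 is therefore independent evidence. *Phex*, the endopeptidase that binds MEPE and cleaves its peptide, stood at 60.04, 352 and 172 against 31.4, 17.3 and 0.446 CPM (log2 fold change 3.57, SE 1.19, edgeR unadjusted p = 0.0125, adjusted p = 0.911). *Fam20a*, a pseudokinase that activates FAM20C, stood at 23.4, 28.3 and 107 against 18.3, 3.63 and 10.6 CPM (log2 fold change 2.28, SE 0.85, edgeR unadjusted p = 0.0216, adjusted p = 0.911). *Fam20c*, the kinase that phosphorylates the SIBLING proteins, had overlapping plates, with 46.4, 252 and 522 against 38.0, 44.0 and 65.1 CPM (log2 fold change 2.48, SE 0.77, edgeR unadjusted p = 0.00857, adjusted p = 0.886), and was named after its values were seen. Without wells A12 to D12 the edgeR unadjusted p of *Phex* was 0.0639, and *Phex* is also on the list of bone-forming cells.

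In the 39 cells with *Spp1* and *Dmp1*, *Mmp9* was at 100 CPM or more in 92.3%, *Fam20c* in 58.97% and *Phex* in 48.7%, against 11.6%, 7.97% and 6.52% of the other 138 CA-ERBB2 cells. For the receptors *Itgb1* and *Itgav* the shares were 56.4% and 30.8% against 50.7% and 29.7%. Not every enzyme went the same way, since *Mmp2* was at that level in 17.9% against 39.9% and *Bmp1* in 25.6% against 38.4%, while *Fam20a* was in 12.8% against 6.52%. Among the other receptors *Cd44* was in 15.4% against 6.52% and *Itgb3* in 7.69% against 0.725%. These shares pool the plates and were not tested. Plate 1, with more genes detected per cell, held 3 of the 39 cells. Whether a direction depends on the plates included, as for *Pkd2* and *Nudt9*, was not read for these genes.

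Of 14 transcription factors, all were tested, 0 were called by the adjusted p, and 1 was higher and 0 were lower at an unadjusted p under 0.05, with a median log2 fold change of -0.22. Beside the 2.77% of all genes that were higher, 1 of 14 is no result about the list. The 1 was the vitamin D receptor gene *Vdr*, named after its values were seen, with overlapping plates at 17.0, 48.0 and 71.9 against 5.26, 20.4 and 12.7 TMM-scaled CPM (log2 fold change 1.83, SE 0.77, edgeR unadjusted p = 0.0374, adjusted p = 0.911). The factors with the highest level were *Fos* (log2 fold change -0.41, SE 0.48) and *Jun* (-0.10, SE 0.49), the AP-1 subunits. Of 8 other genes of secretory calcium-binding phosphoproteins, 3 were tested and 0 passed either threshold. *Sparc*, an older relative of the family, had plates at 4201, 3134 and 3241 against 4297, 3600 and 4628 TMM-scaled CPM (log2 fold change -0.24, SE 0.48, edgeR adjusted p = 0.973). *Ambn*, which encodes the enamel protein ameloblastin, had plates at 42.6, 0 and 301 against 0, 4.54 and 0.00827 TMM-scaled CPM (log2 fold change 6.24, SE 2.88, edgeR unadjusted p = 0.0541, adjusted p = 0.911), and was at 100 CPM or more in 5 of the 39 cells with *Spp1* and *Dmp1* and in 0% of the other 138. It was named after its values were seen.

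**Figure D5:**
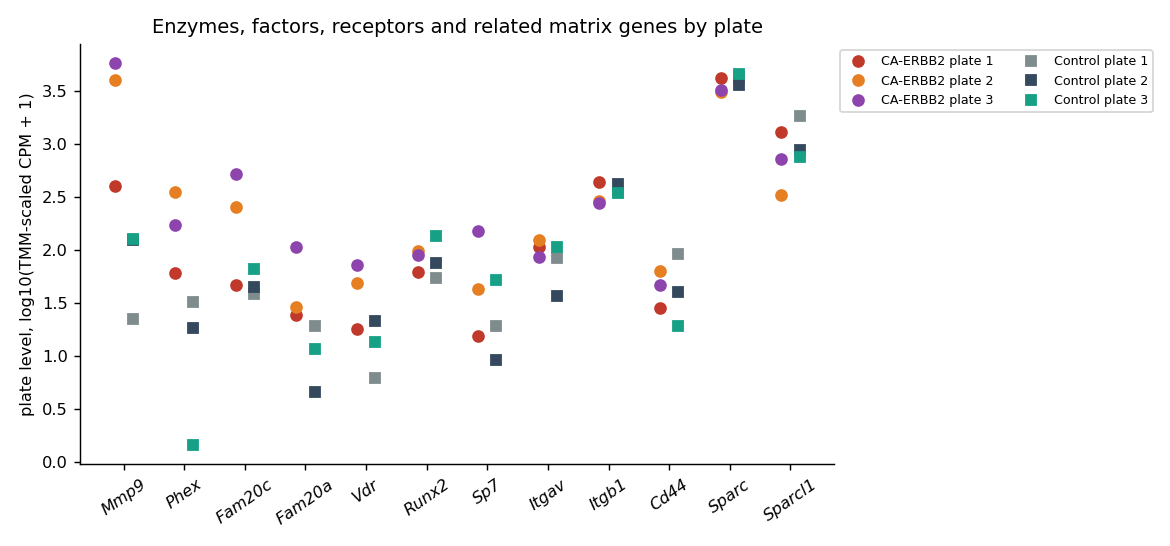
Plate levels, as log10(TMM-scaled CPM + 1), of enzymes, transcription factors, receptors and related matrix genes, with circles for the 3 CA-ERBB2 plates and squares for the 3 Control plates. The plates of *Mmp9*, *Phex* and *Fam20a* do not overlap between genotypes, whereas those of the other 9 genes drawn do.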

How the data were processed

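Libraries of GFP+ cells, from 3 plates of 59 cells for each genotype, had been made with SMART-Seq Single PLUS from polyA RNA. The authors trimmed the reads, mapped them with STAR 2.7.6a to GRCm38 with Gencode M25 and counted them by strand on exons with featureCounts of Subread 2.0.1. The values they deposited are raw counts, in whole numbers, for each gene in each cell. Positions and exon lengths were taken from Gencode M21, on the same build, and promoter sequences from RefSeq.

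No cell was left out. Counts were summed per plate and fitted with edgeR 4.0.16 in R 4.3.3 (TMM, filterByExpr, quasi-likelihood test, Benjamini-Hochberg over all genes tested). The plate numbers were taken as the FACS experiments, and p-values cover only the spread between plates. Depth is given as counts per plate and per cell. The edgeR step was also tested on simulated data. Alternatives were DESeq2 1.42.0, limma 3.58.1, other filters, windows and levels, thinning to 100000 counts, and leaving out plates or wells. Alternatives for *Ibsp*, Gm42793, the named enzymes and *Vdr* were chosen after seeing the data.

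The members, lists and motifs were chosen with earlier results of these data known. Named neighbours are the nearest protein-coding gene tested on each side, those at an unadjusted p under 0.05 and the 3 with the highest CPM. Of each list, genes with an unadjusted p under 0.05 and plates that do not overlap are named, up to 4, or else the 2 with the highest CPM.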

Additional observations from a re-analysis of the deposited data

How the results depend on the processing

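The levels of *Spp1* and *Dmp1* stayed higher in CA-ERBB2 under each alternative in which they were read. Their log2 fold changes lay from 6.72 to 8.18 for *Spp1* and from 6.51 to 8.61 for *Dmp1*. The share of CA-ERBB2 cells with *Spp1* at 100 CPM was 40.7% and lay between 34.7% and 52.5% without a plate. It was 51.4% at 10 CPM and 32.8% at 1000 CPM. Without wells A12 to D12 the shares of CA-ERBB2 cells with *Spp1* and *Dmp1* at 100 CPM were 37.6% and 21.2%. The share of cells with *Dmp1* that also had *Spp1* was 81.0% and lay between 70.7% and 95.8% without a plate. The sign of *Ibsp* reversed in limma with every cell weighted equally (-0.85) and in limma on the summed counts (-0.66), where the weighting was as in edgeR. It also reversed with the plate number as a block (-1.19) and without CA-ERBB2 plate 2 (-2.23), and lay between -2.23 and 2.00 when a plate was left out. The cause was not tested.

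The number of genes called was 1 with edgeR, 341 with DESeq2 on 39201 genes (210 higher in CA-ERBB2), 235 with DESeq2 on the 21416 genes that edgeR tested (129 higher), 285 without a filter on low counts (184 higher), where 39201 genes were tested, and 0 with limma on equally weighted cells and on summed counts, where 616 and 995 genes had an unadjusted p under 0.05. DESeq2 on the genes tested and limma on summed counts were added after seeing the data. Without a plate it lay between 0 and 2, with 0 without Control plate 1 or 3. The neighbours higher at an unadjusted p were 2 with DESeq2, 2 without the filter, 0 with the block, and between 0 and 2 without a plate. They were 0 without CA-ERBB2 plate 3, where the edgeR unadjusted p of Gm42793 was above 0.05. Over the 12 alternatives that gave a p for Gm42793, the highest was 0.0842, from edgeR. DESeq2 gave none for it, and the 2 neighbours there were the non-coding 1700021F02Rik (100 counts) and 5430427N15Rik (211 counts). Beside Gm42793, the first was higher without the filter and the second without Control plate 2. Both were named after their values were seen. The unadjusted p of *Fam20a* rose above 0.05 in 5 of 13 alternatives (highest 0.168), among them without CA-ERBB2 plate 3 or Control plate 2. That of *Vdr* did so in 8 of 13 (highest 0.136), among them without CA-ERBB2 plate 2 or 3 and without Control plate 1 or 3. Those of *Mmp9* and *Fam20c* stayed below 0.05 in each of the 13 alternatives in which they were read. Leaving out the TMM factors moved the median of all genes from -0.02 to -0.27.

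The replicate numbers are shared by the genotypes, and the correlations of same-numbered plates were 0.21, 0.08 and 0.08, so the numbers were not taken as pairs. With the block, *Spp1* had a log2 fold change of 6.85 and *Dmp1* of 7.33.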
